A study of Homo sapiens with 2 samples.

Results

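The epidermal differentiation complex is a stretch of band 1q21 in which genes of the skin barrier lie side by side. It was taken here as chromosome 1 from 151.95 to 153.62 Mb (GRCh37), and every peak summit between those bounds was a member. There were 77 such summits, out of 105637 in the whole list. The summits came from chromatin immunoprecipitation followed by sequencing in A549, a human lung adenocarcinoma line made to overexpress Myocardin (MYOCD) stably from the vector pWPI. In 1 library chromatin of this line was pulled down with anti-Myocardin and in the other with nonspecific IgG, so both libraries carry the overexpression and no line without it was part of the series. The deposited list is 1 list for the whole series and ties no summit to either antibody, so it gives no contrast of anti-Myocardin with IgG at any position.

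Genes of the complex encode the proteins that keratinocytes use when they die and form the cornified layer. Filaggrin, which belongs to the S100-fused proteins, bundles keratin filaments. Involucrin, loricrin, the small proline-rich (SPRR) and the late cornified envelope (LCE) proteins are cross-linked into the envelope under the cell membrane. Most S100A proteins are small calcium-binding proteins, of which S100A8 and S100A9 act together as calprotectin in inflammation. S100A10 is a partner of annexin A2. Myocardin is a coactivator of smooth and cardiac muscle genes. It reaches DNA through the serum response factor, whose site is the CArG box.

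The order of genes was read from RefSeq's table for GRCh38.p14, and it lists 63 protein-coding genes from S100A10 up to the gene before CHTOP. First come S100A10 and S100A11 and the 7 S100-fused genes (TCHHL1, TCHH, RPTN, HRNR, FLG, FLG2 and CRNN). They are followed by 19 LCE genes, then IVL, which encodes involucrin, and 11 SPRR genes. LORICRIN, PGLYRP3 and PGLYRP4 stand between the SPRR genes and the last 14 genes, from S100A9 to S100A1. Also protein-coding are CRCT1, KPLCE and KPRP, which lie among the LCE genes. SMCP lies before IVL, and LELP1 and PRR9 lie between the SPRR genes and LORICRIN. Only names and order were used, because the summits are in GRCh37. Summits are therefore not matched to single genes or promoters, and the parts of the complex are called by the gene families that they are set to hold.

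The promoters of the protein-coding genes of the complex were searched for the CArG box, the letter pattern by which Myocardin's partner is known. RefSeq's promoter table for GRCh38.p14 (250 bases before to 50 after each gene's start) held 59 of the 63 genes. The pattern reads the same on both strands, so 1 search covers both. It was found in 2 of the 59 promoters (3.39%), against 454 of the 35116 promoters in the table (1.29%). A count of 2 is small, and whether the shares differ was not tested. At the share of the whole table, sets of 18 or 16 promoters would most likely hold no match. None of the 18 LCE promoters held the pattern, nor did any of the 16 S100A promoters. The promoters that held it belong to FLG, for filaggrin, and to SPRR4, and their 250 bases before the start are shown with the match in capitals. The FLG promoter lies on the minus strand at chr1:152325240-152325489 and the SPRR4 promoter on the plus strand at chr1:152970398-152970647, both in GRCh38.p14, so these positions cannot be set beside those of the summits.
FLG: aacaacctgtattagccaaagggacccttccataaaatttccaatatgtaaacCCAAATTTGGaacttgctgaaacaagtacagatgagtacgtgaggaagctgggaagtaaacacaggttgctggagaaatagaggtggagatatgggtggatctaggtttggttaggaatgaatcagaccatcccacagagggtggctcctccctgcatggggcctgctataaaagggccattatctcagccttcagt
SPRR4: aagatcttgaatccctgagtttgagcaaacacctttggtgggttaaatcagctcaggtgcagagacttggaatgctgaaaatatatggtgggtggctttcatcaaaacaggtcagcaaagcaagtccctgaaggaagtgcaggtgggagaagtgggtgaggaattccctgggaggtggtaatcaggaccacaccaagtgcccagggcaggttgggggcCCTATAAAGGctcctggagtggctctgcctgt
In FLG the match spans bases 197 to 188 before the start and is a perfect palindrome. In SPRR4 it spans bases 32 to 23 before the start and overlaps the letters TATAAA, the core of a TATA box. A match of letters is a description and not a binding site.

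Summits were sparser in the complex than beside it. The complex carried 46.1 summits per Mb (exact Poisson 95% interval 36.4 to 57.6). The 2 Mb before it carried 77.5 per Mb (155 summits, 65.8 to 90.7) and the 2 Mb after it 85.0 per Mb (170 summits, 72.7 to 98.8). The ratio of the complex to both sides together was 0.567 (exact conditional 95% interval 0.437 to 0.730). Compared with the rest of the long arm, which carried 41.7 summits per Mb, the ratio was 1.11 (0.870 to 1.38), an interval that includes 1. The sides were themselves 1.95 times as dense as the rest of the arm (1.73 to 2.18). That rest is all of the arm outside the complex, so its 4382 summits include the 325 of the sides. The interval for the sides does not allow for this overlap. These intervals treat summits as independent and cover counting error only. With 1 list and no replicate library no p-value is given, and variation between experiments is unknown.

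**Figure D1:**
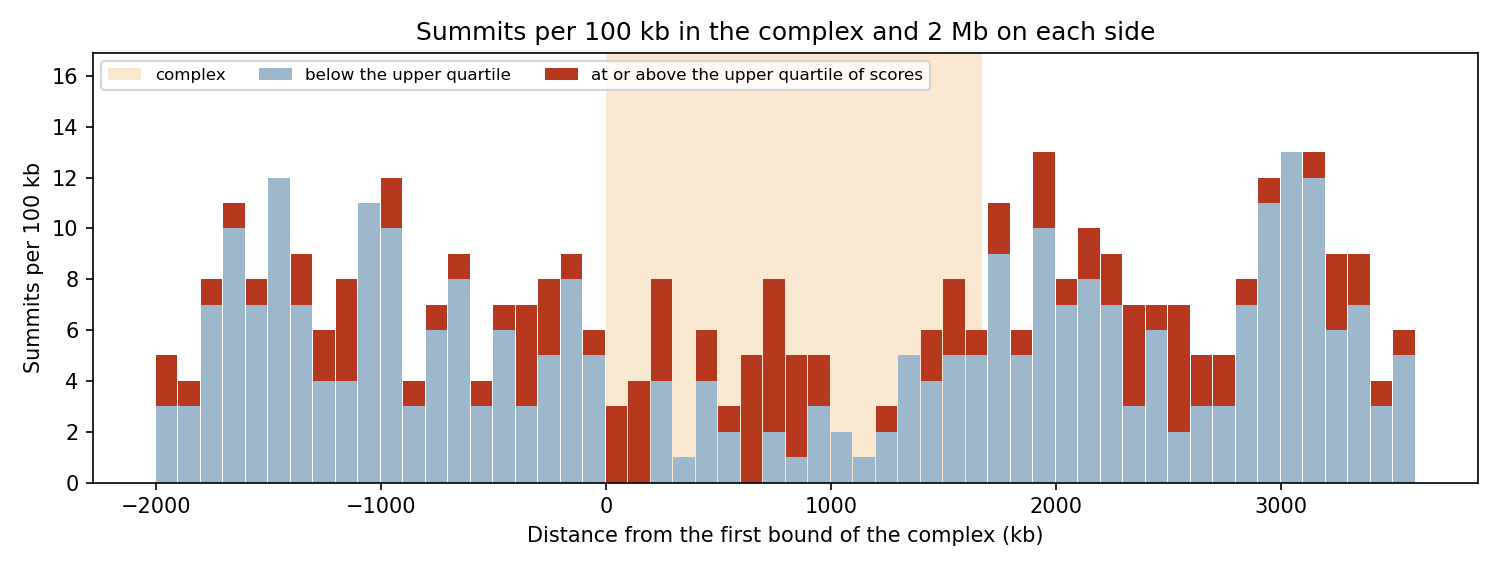
Number of summits per 100 kb (bars) against distance from the first bound of the complex, with summits at or above the upper quartile of all scores in red and the others in blue. The shaded complex carries 46.1 summits per Mb against 77.5 and 85.0 on its sides, and its bars are low mainly in blue; the bar that crosses its last bound and the sides' last incomplete bin (not drawn) follow the 100 kb grid.

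Compared with its sides, the complex held fewer summits per Mb without a high score. Each summit carries a score from the authors' peak caller. Its unit is not given, and it only ranks summits within the list. A score counts as high when it is at or above the upper quartile of the whole list, which is 12.2. High scores were carried by 38 of the 77 summits, or 49.4% (exact Clopper-Pearson 95% interval 37.8% to 61.0%), against 26.3% in the whole list. On the sides the share was 20.3% (66 of 325, 16.1% to 25.1%), and the difference was 29.0 percentage points (Newcombe 95% interval 17.2 to 40.7). On the rest of the arm the share was 30.6% (1342 of 4382), and the complex was 18.7 points above it (7.77 to 29.7). The sides minus the rest of the arm, which includes them, came to -10.3 points (-14.6 to -5.42). High-scoring summits stood at 22.8 per Mb in the complex and 16.5 on its sides, a ratio of 1.38 whose interval includes 1 (0.900 to 2.09). The other summits stood at 23.4 per Mb in the complex and 64.8 on its sides, a ratio of 0.361 (0.251 to 0.506). Against the rest of the arm the ratio was 1.78 for high-scoring summits (1.25 to 2.46) and 0.807 for the others (0.573 to 1.11), so there the interval that left out 1 was that of the high scores. The median score was 11.9 in the complex, 7.96 in the 2 Mb before it, 8.03 in the 2 Mb after it and 9.22 on the rest of the arm. The strongest summit of the complex ranked 663 in the list, below the strongest on the right side, at chr1 position 155161431 with a score of 72.9 and rank 67.

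The complex was then placed among windows of its own length, 1670001 bp, laid end to end along the rest of the long arm. Of 62 windows, 41 held fewer summits than the complex and 21 held more, so its number of summits lay within the middle of the arm, whose quartiles were 42.0 and 89.5 summits per window. Its number of high-scoring summits, 38, was higher than in 61 of the 62 windows and equal to that in the remaining window, with a median of 21 per window. Its median score was exceeded in 1 window, with 42 summits and a median of 12.2, at chr1:197040027-198710027. Windows with many summits tended to have low medians, with Pearson's r of -0.61 and Spearman's rho of -0.60 between number and median score over the 62 windows. These describe 1 list, and the windows share its libraries. Among the 21 windows with more summits than the complex the highest median was 11.2. The ranks are descriptions, and no random draw of windows was made.

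**Figure D2:**
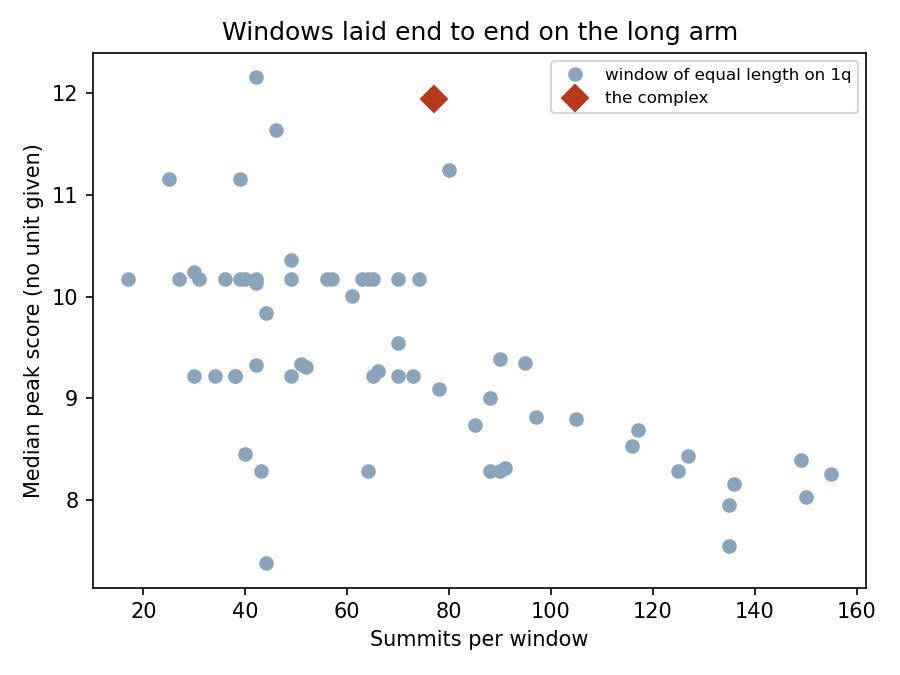
Median peak score against the number of summits for 62 windows of 1.67 Mb laid end to end on the long arm of chromosome 1 (circles) and for the complex (diamond). The complex, with 77 summits and a median of 11.9, lies above all but 1 window, and that window holds 42 summits.

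Within the complex, the part with the LCE and SPRR genes (152.48 to 153.13 Mb) held 28 summits and the S100A part (153.33 to 153.62 Mb) held 19. Their densities were 43.1 per Mb (28.6 to 62.3) and 65.5 per Mb (39.4 to 102.3). The ratio of LCE and SPRR to S100A was 0.657, and its interval (0.354 to 1.25) includes 1, so the parts could not be told apart by density at these counts. Against the sides of the complex the ratio was 0.530 for the LCE and SPRR part (0.347 to 0.781) and 0.806 for the S100A part (0.479 to 1.28). The stretch before the LCE genes held 23 summits over 530 kb, or 43.4 per Mb (27.5 to 65.1). The stretch between the SPRR and S100A parts held 7, or 35.0 per Mb (14.1 to 72.1). Over all windows of the same length at 10 kb steps along the arm, 60.3% held fewer summits than the LCE and SPRR part and 80.8% held fewer than the S100A part.

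High scores were more frequent in the LCE and SPRR part than in the S100A part, by a margin that depends on where the threshold is set. In the LCE and SPRR part 18 of 28 summits scored high, or 64.3% (44.1% to 81.4%), and in the S100A part 6 of 19 did, or 31.6% (12.6% to 56.6%). The difference was 32.7 percentage points (Newcombe 95% interval 3.68 to 54.8). It was 25.6 points (-3.23 to 48.6) when the 2 summits that lie exactly on the quartile were not counted as high. With the median of the list as the threshold it was 34.8 points (23 of 28 against 9 of 19; 7.35 to 57.2), and for the top 10% of scores it was 7.52 points (8 of 28 against 4 of 19; -18.4 to 29.9). The median score was 13.2 in the LCE and SPRR part and 7.71 in the S100A part. Of windows on the arm with the length of each part, 96.3% had a lower median than the LCE and SPRR part and 12.6% had a lower median than the S100A part. The stretch before the LCE genes was like the LCE and SPRR part in these values, with a median of 13.7 and 13 of 23 summits high. The stretch between the parts had a median of 9.84 and 1 high summit of 7.

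**Figure D3:**
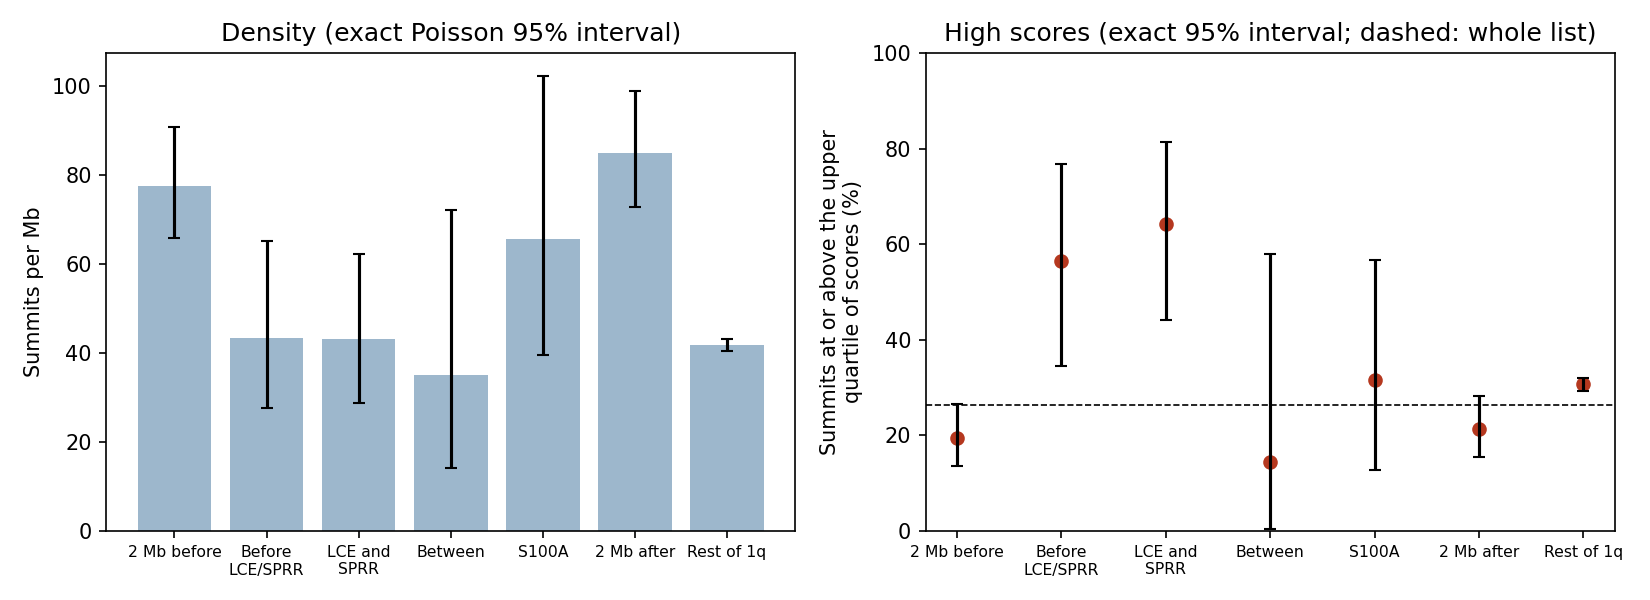
Left, summits per Mb (bars) with exact Poisson 95% intervals; right, percentage of summits at or above the upper quartile of all scores (points) with exact 95% intervals and the whole list as a dashed line, for the sides, the 4 parts of the complex and the rest of the long arm. The LCE and SPRR part and the stretch before it stand at 64.3% and 56.5% high scores, above both sides, while the intervals of the S100A part overlap those of the sides in both panels.

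The LCE and SPRR part held the strongest summit of the complex, at position 152749054 with a score of 33.0 (rank 663 of the list). It was followed in this part by 152800095 with 27.3, 152671525 with 23.2, 152777698 with 23.2 and 152883430 with 21.5. None of its summits after position 152897516 reached the upper quartile. In its first 325 kb there were 20 summits, 16 of them high, with a median of 14.0. In its last 325 kb there were 8, of which 2 were high, with a median of 8.75. This division into equal lengths was made after the values were seen. RefSeq orders the LCE genes before IVL and the SPRR genes, but where the families meet in GRCh37 was not determined.

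The emptiest stretch of the complex ran over the end of the same part. From 152957857 to 153180930, a span of 223.1 kb, there were only 2 summits, at 153022112 and 153094621, with scores of 4.82 and 5.64. The 86.3 kb after the second of them was the longest distance between neighbouring summits in the complex, and it ranked 222 among 4458 such distances on the long arm. Distances over 50 kb made up 9 of the 76 in the complex (11.8%), 4 of 154 in the 2 Mb before it (2.60%), 3 of 169 in the 2 Mb after it (1.78%) and 12.4% of those on the rest of the arm. Gaps of this size were thus as common in the complex as on the arm in general, and the sides had fewer.

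**Figure D4:**
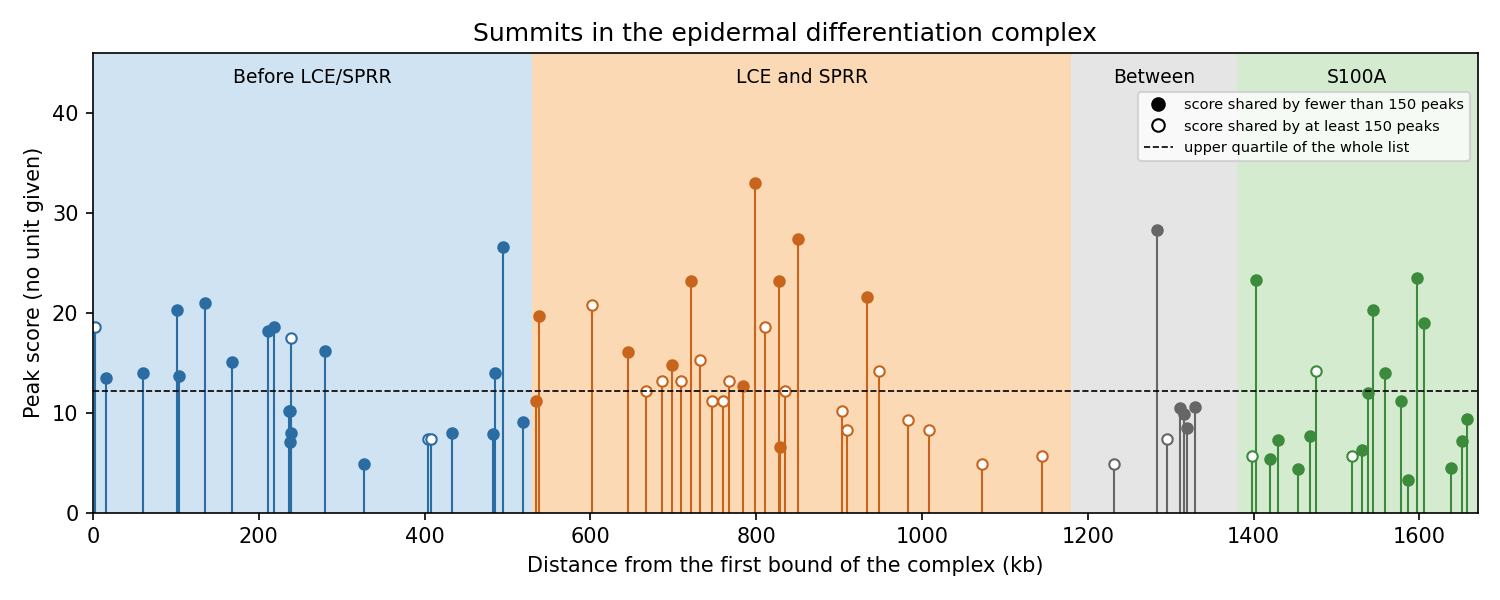
Each of the 77 summits as a vertical line whose height is its peak score, against distance from the first bound of the complex, with the 4 parts shaded and the upper quartile of all scores dashed; open circles mark scores shared by at least 150 peaks of the list. The highest line, 33.0, stands in the LCE and SPRR part, and open circles make up 17 of the 28 summits there and 3 of 19 in the S100A part.

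Many summits of the LCE and SPRR part shared their score with many others in the list. The list has 19 scores that are each carried by at least 150 peaks, a minimum chosen after values of these data had been seen. Such scores were carried by 17 of the 28 summits there, or 60.7% (40.6% to 78.5%), and by 3 of 19 in the S100A part, or 15.8% (3.38% to 39.6%), a difference of 44.9 percentage points (16.5 to 63.7). The share was 29.4% in the whole list, 7.69% on the sides (25 of 325) and 17.4% in the stretch before the LCE genes (4 of 23). In the last 325 kb of the LCE and SPRR part 7 of the 8 summits carried one. The score of 13.2 was found at 3 positions of this part, 152636791, 152659555 and 152716929, and at 1321 positions in the list. With the shared scores left out, the remaining summits of the part had a median of 19.7, against 8.54 in the S100A part and 8.02 on the sides. It was 13.7 in the stretch before the LCE genes and 12.7 in the complex as a whole. In the LCE and SPRR part this left out 17 of the 28 summits, with scores from 4.82 to 20.8. The 5 strongest summits of the part, with scores of 21.5 and above, all carried scores that are not shared in this way. The minimum makes that likely at high scores, because 7.37 was carried by 4026 peaks, 18.6 by 326 and 20.8 by only 159.

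The S100A part held no close pair of summits. The distance to the nearest other summit had a median of 8.28 kb and a minimum of 5.68 kb. None of the 19 had another summit within 5 kb, which allows a share of up to 15.8% (3 counts of 19). This limit treats the summits as independent and so is too narrow, because closeness is shared by both summits of a pair. On the sides the share was 42.8%, above this limit. In the LCE and SPRR part it was 14.3%, which lies within the limit. The share was 35.8% on the rest of the arm, 47.8% in the stretch before the LCE genes (11 of 23) and 42.9% between the parts (3 of 7). The strongest summits of the S100A part were at 153547458 with a score of 23.5, 153353336 with 23.3, 153494513 with 20.3, 153555742 with 19.0 and 153425221 with 14.2. The lowest score of the whole complex, 3.26, was also in this part, and 7 of its 19 summits lay in the lowest 25% of scores, against 2 of 28 in the LCE and SPRR part.

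The closest group of summits lay in the stretch before the LCE genes. Between 152186559 and 152189301, a span of 2.74 kb, lay 5 summits with scores from 7.06 to 17.4, more than in any other 5 kb of the complex. On the whole arm 3 of 4459 summits had at least 4 others in the 5 kb after them, the first of this run included. After it summits were rare, with 1 at 152229343 (16.2), 1 at 152276270 (4.83) and then none for 77.3 kb. The strongest in the stretch were at 152444607 with a score of 26.5, 152084585 with 21.0, 152051691 with 20.2, 152168607 with 18.6 and 151952269 with 18.6. In the stretch between the SPRR and S100A parts the highest were 153233996 with 28.2, 153279672 with 10.5, 153261293 with 10.4, 153265757 with 9.84 and 153269334 with 8.48. The first of these was the second strongest summit of the complex.

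The bounds of the complex cut through no dense group. The first member lay 2.27 kb inside the first bound with a score of 18.6, and the last summit before that bound lay 17.6 kb outside with 11.1. At the other end the last member lay 13.3 kb inside with a score of 9.37, and the next summit 11.3 kb outside with 7.13. The strongest summit in the 2 Mb before the complex was at position 151742039 with a score of 28.8.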

How the data were processed

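The deposited file lists summits of 1 bp with a score of unnamed unit, per the file headers, and its name points to the peak caller MACS. Not given in the sources used here are the caller's version and threshold, the aligner, any use of IgG as control, and the handling of duplicates and of reads from near-identical gene copies. The submitters' processing notes name CASAVA 1.4. They also name mm9 and GRCh38.p12, but 13627 and 1093 summits lie past chromosome ends there, and 0 in GRCh37 (lengths from the R package GenomeInfoDb). Read depth is unknown, and the list holds 0 columns of per-sample values. No GRCh37 sequence or annotation was used here.

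The end column gave the position. Densities carry exact Poisson intervals, ratios exact conditional ones and shares Clopper-Pearson ones, all at 95% (scipy 1.17.1); for a count of 0 the limit is 3 counts of the total, and differences of shares carry Newcombe intervals. The long arm ran from the first summit after the longest summit-free stretch of chromosome 1 (21.1 Mb) to the last, and it held 0 stretches of 1 Mb or more without a summit. Named summits are the 5 with the highest scores in each part and the highest on each side; others were chosen after their values were seen. The bounds, parts and lists were chosen with earlier results of these data known. Counting and interval procedures were tested on simulated data.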

Additional observations from a re-analysis of the deposited data

How the results depend on the processing

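Of 31 alternatives over the results described, 23 stayed within the interval of the value, on the same side of no difference wherever that interval excluded it. Some of these could not move. The arm held 0 stretches of 1 Mb or more that could be left out. Neither the LCE and SPRR part nor the S100A part held summits within 1 kb of each other that could be merged. With only the top 25% of scores counted, the ratio of the complex to its sides turned from 0.567 to 1.38 (0.900 to 2.09). In the same setting the ratio to the rest of the arm came to 1.78 (1.25 to 2.46), that of the LCE and SPRR part to the S100A part to 1.34 (0.509 to 4.12), and the percentage of arm windows with fewer summits to 98.4% for the complex and 97.7% for the LCE and SPRR part. Over scores at or above the median, the ratio of the complex to its sides was 0.883 (0.630 to 1.22) and that of the LCE and SPRR part to the S100A part 1.14 (0.508 to 2.80). The difference in high scores between the LCE and SPRR part and the S100A part was 25.6 points with scores strictly above the quartile and 7.52 points (-18.4 to 29.9) for the top 10% of scores, and 34.8 points (7.35 to 57.2) for the top 50%. Except for the last, these settings count fewer summits as high or at all; beyond that the cause was not tested. The score settings for that difference, the minimum for shared scores and the ranks of median scores were chosen after seeing the data. No paired analysis was possible because the list is tied to no sample, and no replicate could be left out with 1 library per antibody.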
